A study of Rattus norvegicus with 48 samples.

Results

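Hmox1 encodes heme oxygenase 1, the inducible enzyme that opens the heme ring. It was represented by 1 probe set (7178969, Entrez gene 24451) of the 8797 on the array, the only probe set whose single gene symbol in the platform annotation is Hmox1. Of all probe sets, 7603 carried a single symbol and named 7589 genes. The level of this gene was followed through every strain, day and array of the study.

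Heme oxygenase 1 cleaves heme to biliverdin, carbon monoxide and free iron, using electrons passed on by cytochrome P450 reductase, and biliverdin reductase then makes bilirubin. Its transcription is held low by Bach1 and is switched on by Nrf2, AP-1 factors and the heat shock response when cells meet heme, electrophiles or oxidants. In the kidney it is best known as a gene of the tubular epithelium and of macrophages that is induced after toxic or ischemic injury.

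Kidney RNA came from male rats aged 12 to 14 weeks. Their 4 strains go by the letters F, L, FL and LF, which the sources used here do not explain. Each strain was gavaged with indole-3-carbinol (I3C), a plant compound whose acid products activate the aryl hydrocarbon receptor (AhR), at 100 mg/kg per day for 7 or 10 days, or with vegetable oil alone (here day 0). Each of the 12 groups held 4 arrays and, by the protocol, 8 rats. The design text calls the arrays biological replicates and does not say whether an array holds the RNA of 1 rat or of several, so p-values measure the spread between these samples. For how many days the oil was given is not stated. Replicate numbers 1 to 4 name array runs, each with 1 array of every group.

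Signals are the deposited log2 values, on which a difference of 1 doubles the linear signal. Array medians lay between 5.66 and 6.06, array SDs between 2.29 and 2.54 and correlations within groups between 0.979 and 0.992. Kidney genes were high on all 48 arrays: Umod, the loop of Henle glycoprotein, lay between 12.53 and 13.02, and Slc34a1, the phosphate carrier of the proximal tubule, between 11.74 and 12.19. The table gives no detection calls, so whether the lowest Hmox1 signals lay above background was not measured. In whole kidney, fewer cells of a type and less RNA per cell cannot be told apart.

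Averaged over the strains, Hmox1 rose in the kidney after I3C, at day 7 and at day 10. The rise was not shared evenly: treated arrays stood up to 51.9-fold above the day 0 mean of their strain, and in L and FL at day 10 high arrays stood beside arrays at the day 0 level. At day 7 the high arrays were in F and LF and none were in L or FL. At day 10 they were in F, L and FL, and the LF arrays were only moderately above day 0.

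In F, the day 0 arrays read 4.86, 5.30, 5.46 and 5.28 in replicates 1 to 4, the day 7 arrays 7.87, 5.75, 9.71 and 9.15, and the day 10 arrays 8.61, 9.09, 8.64 and 5.74. Every treated F array was above every F day 0 array, and 1 array at each treated day lay just above the highest of them. The group means were 5.22 ± 0.26 at day 0, 8.12 ± 1.76 at day 7 and 8.02 ± 1.54 at day 10 (SD, n = 4 each).

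In L, day 0 arrays read 5.27, 5.35, 4.74 and 4.85, day 7 arrays 5.17, 4.76, 5.13 and 4.40, and day 10 arrays 7.41, 8.64, 5.11 and 5.10. The day 7 arrays overlapped day 0, with the lowest reading of all 48 arrays among them, and at day 10 a pair of arrays was high while the other pair lay within the day 0 range. The means were 5.05 ± 0.30 at day 0, 4.86 ± 0.36 at day 7 and 6.57 ± 1.76 at day 10 (SD, n = 4 each).

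In FL, day 0 arrays read 5.08, 5.02, 5.14 and 4.99, day 7 arrays 5.17, 5.55, 5.03 and 4.99, and day 10 arrays 4.68, 5.89, 9.59 and 9.20. Here too the day 7 arrays overlapped day 0. At day 10 the arrays ran from the lowest FL reading to the highest, a linear range of 30.1-fold within the group. The means were 5.06 ± 0.067 at day 0, 5.18 ± 0.25 at day 7 and 7.34 ± 2.43 at day 10 (SD, n = 4 each).

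In LF, day 0 arrays read 4.75, 5.07, 4.91 and 4.76, day 7 arrays 10.19, 9.14, 10.57 and 5.87, and day 10 arrays 6.10, 5.97, 5.22 and 5.96. The day 7 group held the highest reading of the series. Every LF array of both treated days was above every LF day 0 array, and the day 10 group was narrow where the day 7 group was wide. The means were 4.87 ± 0.15 at day 0, 8.94 ± 2.14 at day 7 and 5.81 ± 0.40 at day 10 (SD, n = 4 each).

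**Figure D1:**
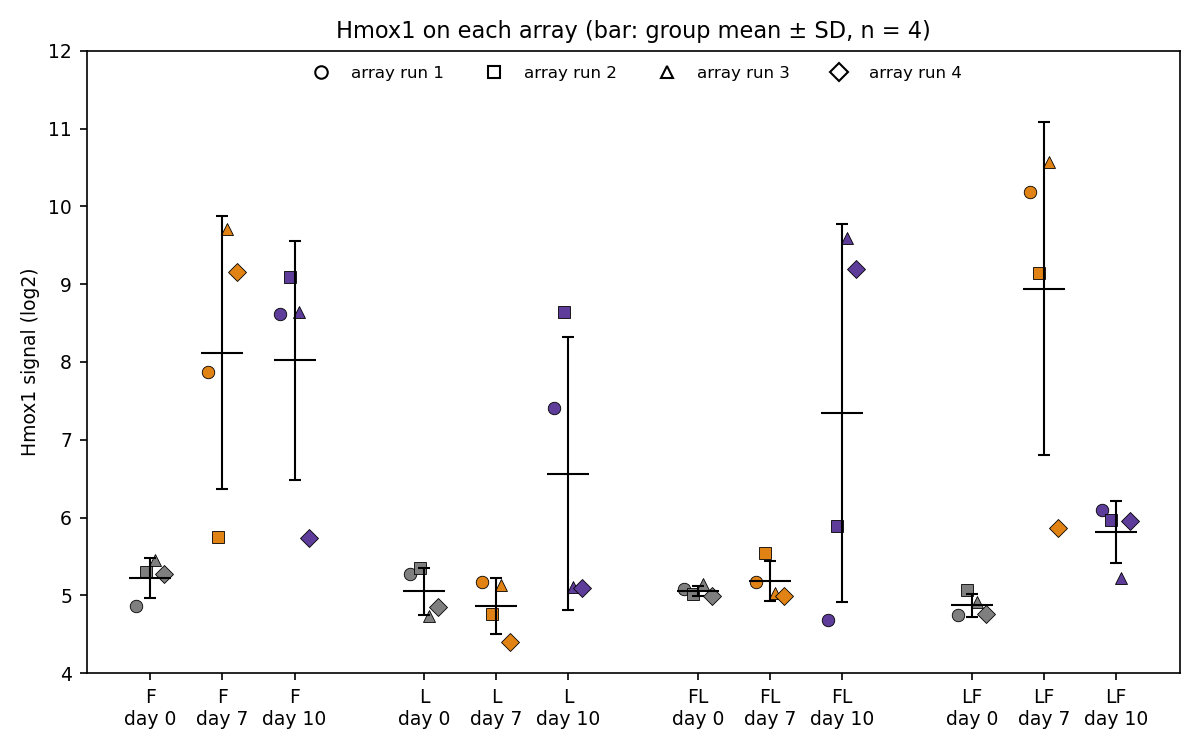
Hmox1 signal (log2, y axis) on each of the 48 arrays, by strain and day (x axis), with the array run as the marker shape and bars for the group mean ± SD (n = 4). The 16 day 0 arrays sit between 4.74 and 5.46, and readings above 7 are found in F at both treated days, in LF at day 7, and in L and FL at day 10.

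Set in order of their means, the groups ran LF day 7, F day 7, F day 10, FL day 10, L day 10, LF day 10, F day 0, FL day 7, FL day 0, L day 0, LF day 0 and L day 7. Each pair of neighbours in this order overlapped, so the order of neighbours is not fixed by these arrays. Over all 48 arrays the linear signal covered a 72.0-fold range.

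Of the 32 treated arrays, 21 were above the highest day 0 array of any strain (5.46), and 16 were at least 1 above the day 0 mean of their own strain. Those 16 were 3 each in F day 7, LF day 7, F day 10 and LF day 10 and 2 each in L day 10 and FL day 10. The widest step between neighbouring readings was 1.31, from 6.10 to 7.41, and 13 arrays lay above it. They came from every array run: 4 from run 1, 3 from run 2, 4 from run 3 and 2 from run 4. Relative to the day 0 mean of the strain, the highest array was 51.9-fold up in LF day 7, 23.1-fold in FL day 10, 22.4-fold in F day 7, 14.6-fold in F day 10, 12.0-fold in L day 10 and 2.34-fold in LF day 10.

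The spread of Hmox1 within groups was itself one of the widest on the array after treatment. Pooled over the day 10 groups its SD was 1.70, the largest of 8797 probe sets, against a median of 0.217 for all probe sets. At day 7 the SD was 1.40, which ranked 4, against a median of 0.196. In the day 0 groups it was 0.215, rank 3409, beside a median of 0.190, so the carrier-fed rats showed an ordinary spread. Over all 12 groups the Hmox1 SD of 1.28 was exceeded by Prdx1 (1.55), a peroxiredoxin, and by an unnamed probe set (1.44). The Prdx1 probe set varied at every day. Its readings went down to 1.04, the lowest signal of the series, and whether they lay above background was not measured.

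**Figure D2:**
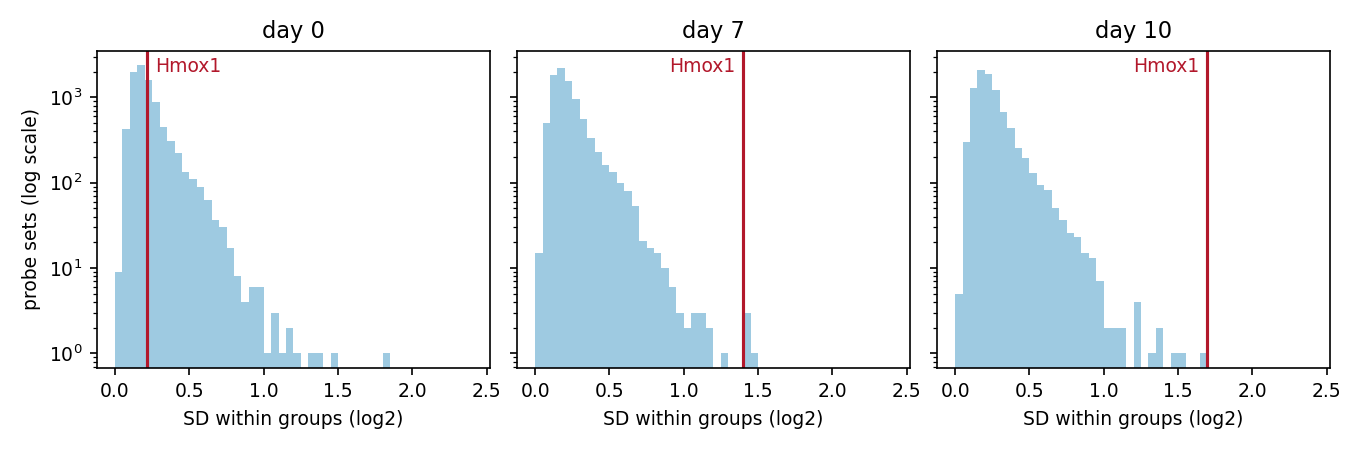
Number of probe sets (y axis, log scale) by the SD within groups (x axis, log2 units), for the day 0, day 7 and day 10 groups, with Hmox1 as a red line. Hmox1 lies near the bulk at day 0 and in the far right tail at days 7 and 10.

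With limma fitted to all arrays, the mean over strains was 6.78 at day 7 against 5.05 at day 0, a rise of 1.73 ± 0.43 (SE, 95% interval 0.86 to 2.60, adjusted p = 0.0119), or 3.31-fold. Of all probe sets, 1.19% were higher and 3.75% lower in that comparison. At day 10 the mean was 6.93 against 5.05 at day 0, a rise of 1.88 ± 0.43 (1.01 to 2.75, limma adjusted p = 0.0079), or 3.69-fold, in a comparison that called 1.26% of probe sets higher and 1.15% lower. By size of difference Hmox1 ranked 3 of all probe sets at day 7 and 2 at day 10. Both calls were lost when all 12 arrays of a run were left out, at day 7 without run 1 (1.60, adjusted p = 0.083) or run 3 (1.45, adjusted p = 0.154), and at day 10 without run 1 (adjusted p = 0.0678), run 2 (adjusted p = 0.0842) or run 3 (adjusted p = 0.0824).

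Pairing each treated array with the day 0 array of its strain and run gave 11 of 16 pairs higher at day 7 (exact sign permutation test, two-sided p = 0.00751, adjusted p = 0.0113 over 3 day comparisons). At day 10, 15 of 16 pairs were higher (exact p = 0.000153, adjusted p = 0.000458). Within runs 1 to 4 the mean difference from day 0 was 2.11, 1.12, 2.55 and 1.13 at day 7, and 1.71, 2.21, 2.08 and 1.53 at day 10. It was above 0 in each run at both days. Between day 10 and day 7 the mean over strains differed by 0.16 ± 0.43 (-0.71 to 1.03, limma adjusted p = 0.877), with 9 of 16 pairs higher at day 10 (exact sign permutation p = 0.840). That comparison called 0.114% of probe sets.

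Strain by strain, only LF at day 7 passed the limma threshold of 0.05. Its mean was 8.94 at day 7 against 4.87 at day 0, a rise of 4.07 ± 0.86 (2.33 to 5.81, adjusted p = 0.00529), the largest difference of all probe sets in that comparison, which called 2.26% of them. The call was lost with only the LF arrays of the 2 days in the fit (adjusted p = 0.0770) and without run 1, 2 or 3 (3.54 to 4.07, adjusted p 0.072 to 0.128).

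For F at day 7 the difference from day 0 was 2.90 ± 0.86 (1.16 to 4.63, limma adjusted p = 0.145, 0.671% of probe sets called), and at day 10 it was 2.80 ± 0.86 (1.06 to 4.53, adjusted p = 0.214, 0.239% called). Without the low replicate 2 of F day 7 the difference was 3.69 (adjusted p = 0.0318). In linear terms the F mean was 7.44-fold higher at day 7 and 6.94-fold higher at day 10, differences that did not pass with all arrays in the fit.

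FL differed from day 0 by 0.13 at day 7 (-1.61 to 1.87, limma adjusted p = 0.985, 0.159% called) and by 2.28 at day 10 (0.54 to 4.02, adjusted p = 0.877, 0.0909% called). The day 10 value was the largest of all probe sets in that comparison, yet it rested on a pair of arrays (1.53 without replicate 3, 3.18 without run 1). L differed by -0.19 at day 7 (-1.93 to 1.55, adjusted p = 0.994, 0.0114% called) and by 1.51 at day 10 (-0.23 to 3.25, adjusted p = 0.999, 0.0114% called), and the day 10 value was 0.82 without replicate 2. LF at day 10 differed from day 0 by 0.94 (-0.80 to 2.68, adjusted p = 0.999, 0.887% called). The SE of 0.86 in each of these within-strain differences comes from the spread pooled over all groups, wide and narrow alike.

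Taken one gene at a time, the exact permutation test of 4 arrays against 4 cannot give a two-sided p below 0.0286. It gave that value where the groups did not overlap: F at day 7, F at day 10, LF at day 7 and LF at day 10, each against day 0 (adjusted p = 0.0857 over 12 comparisons). The share of all probe sets with all 4 treated arrays above all 4 day 0 arrays was 2.92% in F day 7, 1.65% in F day 10, 2.22% in LF day 7 and 2.66% in LF day 10. For FL at day 10 the exact permutation p was 0.143 and for L at day 10 it was 0.171.

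**Figure D3:**
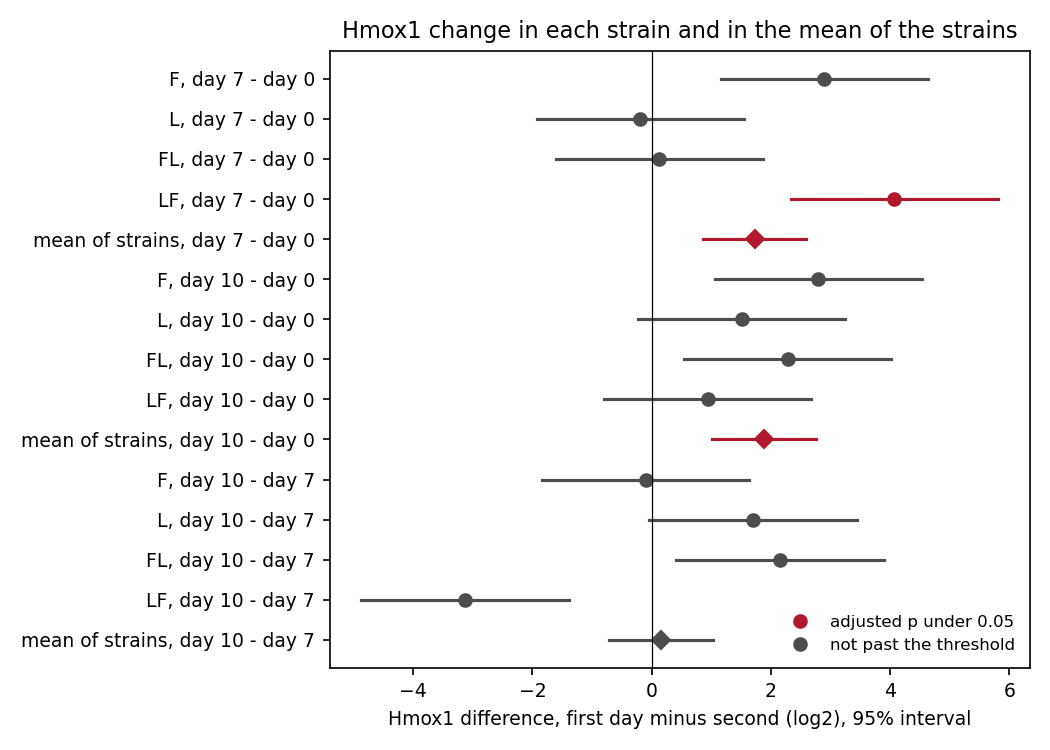
Hmox1 difference between days (log2, x axis, first day minus second) within each strain and averaged over strains, with 95% intervals. The interval lies above 0 for F and LF at day 7, for F and FL at day 10 and for both means, each against day 0, and for FL at day 10 against day 7. It lies below 0 for LF at day 10 against day 7. Red marks an adjusted p under 0.05.

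Between the treated days the means of FL and L were higher at day 10, and that of LF was lower. LF averaged 5.81 at day 10 against 8.94 at day 7, a difference of -3.13 ± 0.86 (-4.87 to -1.39, limma adjusted p = 0.0564), in a comparison that called 1.17% of probe sets. With the array run as a block the adjusted p was 0.0308. The range over the left-out arrays and runs was -4.20 to -2.39. The LF arrays of day 10 and day 7 overlapped. The exact permutation test gave p = 0.114 (adjusted p = 0.257 over the within-strain comparisons). Within runs 1 to 4 the LF difference was -4.09, -3.17, -5.35 and 0.09, so LF did not fall in run 4. FL differed by 2.16 (0.42 to 3.89, limma adjusted p = 0.823), L by 1.70 (-0.04 to 3.44, adjusted p = 0.812) and F by -0.10 (-1.84 to 1.64, adjusted p = 0.991).

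The strains did not differ detectably in Hmox1 at day 0 (F = 0.0560, limma adjusted p = 0.997, a test that called 3.43% of probe sets). That test uses the spread pooled over all groups, far wider than the day 0 spread (SD 1.28 against 0.215), so it could miss small differences. Over the alternatives that did not leave out single arrays or runs, F was at most 1.94 (limma adjusted p at least 0.618). The strains differed at day 7 (F = 11.4, adjusted p = 0.00124, 4.09% called). At day 10 the test was not passed (F = 2.47, adjusted p = 0.351, 4.97% called). The day 7 call was lost without run 3 (F = 6.34, adjusted p = 0.0976).

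Of 18 strain pairs over the 3 days, 3 passed the limma threshold, all at day 7. F was above L by 3.26 (adjusted p = 0.0296, 2.14% of probe sets called), LF was above L by 4.08 (adjusted p = 0.0220, 0.136% called), and FL was below LF by 3.76 (a difference of -3.76, adjusted p = 0.00756, 2.46% called). The F and L pair lost its call without any 1 of the F day 7 replicates 1, 3 and 4 or of the 4 L day 7 arrays, as did the LF and L pair without any 1 of the LF day 7 replicates 1, 2 and 3 or of the 4 L arrays. The FL and LF pair lost it without LF day 7 replicate 1 (adjusted p = 0.0515), and all 3 pairs lost it without run 1 or run 3. FL against LF (adjusted p = 0.0679) and LF against L (adjusted p = 0.221) also lost it without run 2, and F against L without run 4 (adjusted p = 0.125). Without the 5 arrays of lowest signal spread, LF against L (3.54, adjusted p = 0.111) and FL against LF (-3.04, adjusted p = 0.214) lost it too. FL against F gave -2.94 (adjusted p = 0.115, 0.659% called), FL against L 0.32 (adjusted p = 0.922) and LF against F 0.82 (adjusted p = 0.767).

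Whether the change itself differed between strains was tested separately. The strain by day interaction over all groups had F = 4.85 and a limma adjusted p = 0.161, with 0.193% of probe sets called. It passed without FL day 10 replicate 1 (F = 6.35, adjusted p = 0.0391) or without LF day 7 replicate 4 (F = 7.55, adjusted p = 0.0154). Of 18 differences of change between strain pairs none passed with limma. The nearest was the change between day 7 and day 10 in FL minus that in LF, 5.29 ± 1.22 (adjusted p = 0.0638, 0.0909% called). The change between day 0 and day 7 in LF minus that in L was 4.26 (adjusted p = 0.428), and in FL minus that in LF it was -3.94 (adjusted p = 0.404).

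No other measured gene of heme breakdown passed the test. Hmox2, the constitutive heme oxygenase, ranged from 7.40 to 8.33 at day 0, from 7.76 to 8.32 at day 7 and from 7.59 to 8.49 at day 10. Its mean difference from day 0 was 0.02 at day 7 (limma adjusted p = 0.868) and 0.07 at day 10 (adjusted p = 0.922). Blvra, biliverdin reductase A, differed by -0.25 at day 7 (adjusted p = 0.241) and -0.12 at day 10 (adjusted p = 0.936). Por, the cytochrome P450 reductase that feeds the enzyme electrons, differed by 0.00 and 0.01. Over all probe sets the median difference was -0.03 at day 7 and -0.0031 at day 10.

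Heme synthesis was measured by 2 of 9 listed genes, Alad and Uros, and neither passed (-0.15 and -0.11 at day 7, -0.16 and 0.02 at day 10). Of 9 measured genes of heme and globin uptake and transport, 1 fell at day 7, where 3.75% of all probe sets were lower, and none passed at day 10. That gene was Lrp2, the megalin receptor of the proximal tubule (-0.15 ± 0.034, limma adjusted p = 0.00598). Hpx, the heme scavenger hemopexin, differed by 0.02 and -0.03, and Hp, haptoglobin, by 0.14 and -0.01. Of 10 measured genes of iron storage and transport, none passed at either day, with medians of -0.04 and -0.01. Their values ran as far as -0.24 for Heph, hephaestin, at day 7 and 0.25 for Cp, ceruloplasmin, at day 10 (adjusted p = 0.120 and 0.259). The ferritin chains Fth1 and Ftl1, biliverdin reductase Blvrb and Alas1 were not analysed here.

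Of 14 measured regulators of Hmox1 transcription, 1 rose at day 7 and 3 at day 10, against 1.19% and 1.26% of probe sets that were higher. Atf3, a stress-induced AP-1 family factor, rose by 0.38 ± 0.11 at day 7 (limma adjusted p = 0.0343) and 0.45 ± 0.11 at day 10 (adjusted p = 0.0130). At day 10 Jun, an AP-1 subunit, rose by 0.37 ± 0.087 (adjusted p = 0.0105) and Nfe2l2, which encodes Nrf2, by 0.23 ± 0.061 (adjusted p = 0.0302). Keap1, the adaptor that marks Nrf2 for degradation, differed by -0.13 at day 7 (adjusted p = 0.339) and -0.03 at day 10 (adjusted p = 0.995). Messenger levels do not measure the activity of these proteins. The median of the 14 was -0.01 at day 7 and 0.01 at day 10.

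Other Nrf2 targets were measured by 22 genes besides Hmox1. Of these, 1 rose at both days, where 1.19% of all probe sets were higher at day 7 and 1.26% at day 10, and 1 fell at day 7, a share near the 3.75% of all probe sets that were lower. The riser was Gpx2, a glutathione peroxidase, at 0.34 ± 0.060 (limma adjusted p = 0.000336) at day 7 and 0.33 ± 0.060 (adjusted p = 0.000537) at day 10. Gclc, the catalytic subunit of glutathione synthesis, was the one that fell at day 7 (-0.14 ± 0.042, adjusted p = 0.0458). Nqo1, a quinone reductase, differed by 0.10 and 0.13, Txnrd1, thioredoxin reductase, by 0.02 and -0.02, and Gclm, the other glutathione synthesis subunit, by -0.16 and -0.07, and none of the 3 passed. The median of the 22 was -0.02 at day 7 and 0.01 at day 10. In LF at day 7, where Hmox1 was highest, 1 of the 22 rose, Gpx2 (0.47 ± 0.12, adjusted p = 0.0245). That comparison called 2.26% of all probe sets in either direction. In F at day 7 also 1 of the 22 rose, where 0.671% of all probe sets were called.

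Of the AhR and its targets, 9 were measured, 1 rose and 1 fell at day 7, and 2 rose at day 10. For this list and the 3 that follow, the shares of all probe sets were 1.19% higher and 3.75% lower at day 7, and 1.26% higher and 1.15% lower at day 10. Cyp1a1, the cytochrome P450 that AhR ligands induce, rose by 1.33 ± 0.22 at day 7 (limma adjusted p = 8.83e-05) and 1.74 ± 0.22 at day 10 (adjusted p = 9.14e-07), Nfe2l2 was the other riser, and Ahr itself fell by 0.25 at day 7 (adjusted p = 0.0375). Of 8 heat shock genes 1 rose at both days, Hspb1, a small heat shock protein, by 0.26 ± 0.067 at day 7 (adjusted p = 0.0135) and 0.35 ± 0.067 at day 10 (adjusted p = 0.000708). In F at day 7 Hspb1 (0.73, adjusted p = 0.00171) and Hsph1 (0.55, adjusted p = 0.0156) both rose. That comparison called 0.671% of all probe sets in either direction. Of 10 Atf4 and unfolded protein response genes, none rose, Asns and Nupr1 fell at day 7 and Nupr1 at day 10. Within strains, falls from day 0 passed in FL only, 2 at day 7 and 3 at day 10. Those FL comparisons called 0.159% and 0.0909% of all probe sets in either direction. At day 0 the mean signal of these 10 genes was 7.48 in FL, against 7.24 in F, 7.21 in L and 7.25 in LF. Of 8 hypoxia genes 1 rose at both days, Ndrg1 (0.35 and 0.24).

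**Figure D4:**
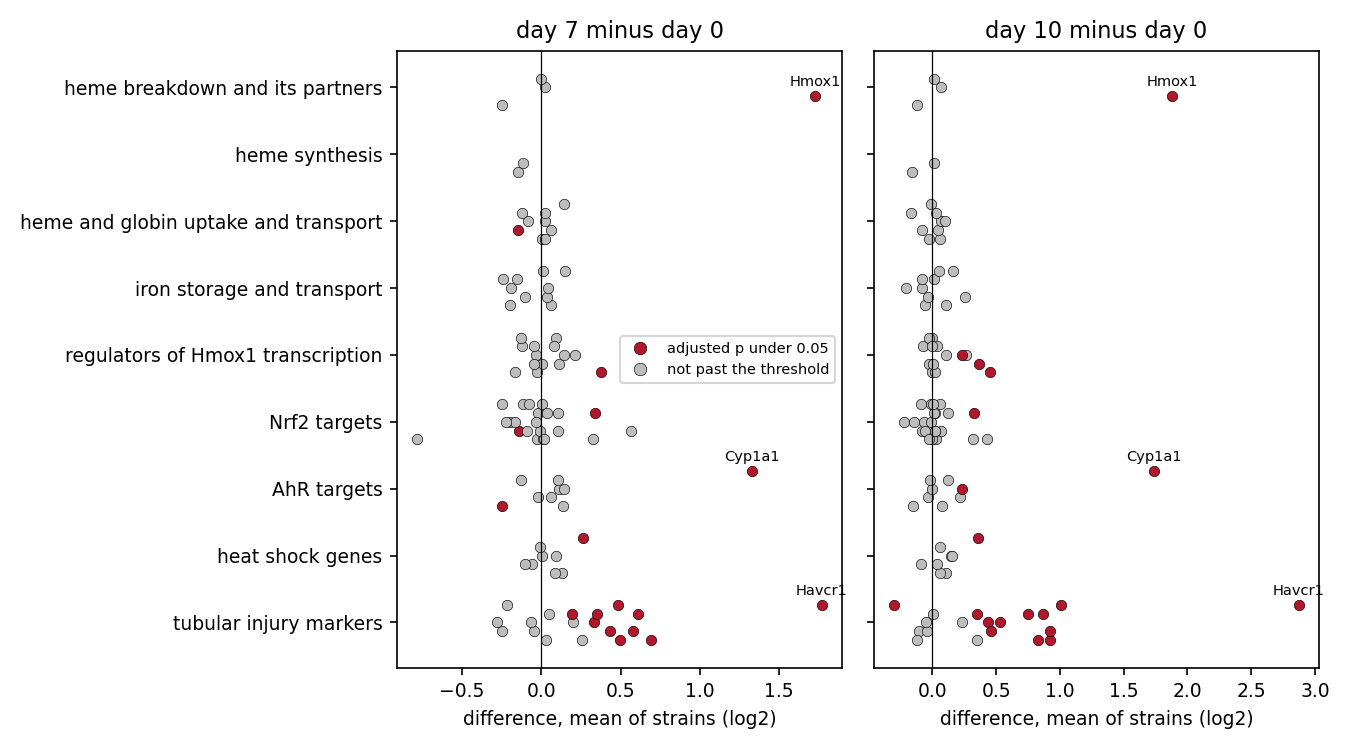
Difference from day 0 in the mean of the strains (log2, x axis) for each measured member of 9 gene lists (y axis), at day 7 on the left and day 10 on the right, with red for an adjusted p under 0.05. Hmox1 stands far from the other genes of heme, iron and Nrf2, and Cyp1a1 and Havcr1 are the other members with differences above 1.3 at both days.

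Markers of tubular injury rose beside Hmox1: 10 of 19 at day 7, with a median difference of 0.26, and 11 of 19 at day 10, with a median of 0.44, where Tff3 alone fell. Of all probe sets, 1.19% were higher at day 7 and 1.26% at day 10. Havcr1, the kidney injury molecule of the proximal tubule, rose by 1.77 ± 0.27 at day 7 (limma adjusted p = 3.40e-05) and 2.87 ± 0.27 at day 10 (adjusted p = 1.74e-09). Cdkn1a, a cell cycle inhibitor, rose by 0.61 ± 0.15 and 0.87 ± 0.15, and Lcn2, lipocalin 2, by 0.35 ± 0.10 and 0.75 ± 0.10. Mean Lcn2 at days 0, 7 and 10 was 5.6, 6.9 and 7.8 in LF and 4.8, 4.6 and 4.7 in FL. In F it was 4.5, 4.9 and 5.0, and in L 5.8, 5.8 and 6.3. Strain by strain, the risers at day 7 were 5 in F, 0 in L, 0 in FL and 7 in LF. At day 10 they were 3, 0, 1 and 10. Shares of all probe sets called in either direction were 0.671%, 0.0114%, 0.159% and 2.26% at day 7. At day 10 they were 0.239%, 0.0114%, 0.0909% and 0.887%. Part of this list was known to rise in these data when it was drawn up, so its count is not independent evidence. Their part in the Hmox1 result was not tested.

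Macrophages, which also make Hmox1, were followed by their markers, and a list of erythroid markers was followed beside them. That erythroid list included Hbb-b1 and Slc4a1, and which cells gave its signals was not measured. Of 11 macrophage markers, 2 fell at day 7, Adgre1 (-0.39 ± 0.11, limma adjusted p = 0.0249) and Aif1 (-0.28 ± 0.064, adjusted p = 0.00566), and 1 rose at day 10, Itgam (0.14, adjusted p = 0.0306), where 3.75% of all probe sets were lower at day 7 and 1.26% higher at day 10. The mean signal of the 11 ranged from 5.99 to 6.59 at day 0, from 5.96 to 6.52 at day 7 and from 5.81 to 6.61 at day 10. In LF at day 7, Adgre1 fell by 0.93 (adjusted p = 0.0114). Of 4 erythroid markers none passed, and their mean signal was 6.27 ± 0.12 at day 0, 6.46 ± 0.17 at day 7 and 6.33 ± 0.13 at day 10 (SD over 16 arrays each). Their part in the Hmox1 result was not tested. Cd68 and Cd163 were not analysed here.

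Among the markers of resident kidney cells the passes were falls. At day 7, 2 of 9 proximal tubule, 5 of 8 loop and distal tubule, 6 of 8 collecting duct, 2 of 6 podocyte and 2 of 2 endothelial markers fell, and none rose. At day 10 the falls were 0 of 9, 4 of 8, 4 of 8, 1 of 6 and 0 of 2. Of all probe sets, 3.75% were lower at day 7 and 1.15% at day 10. The medians at day 7 were -0.06, -0.21, -0.35, -0.10 and -0.28 in the same order, and at day 10 -0.01, -0.16, -0.31, 0.005 and -0.19. Their part in the Hmox1 result was not tested.

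Group by group, the injury marker Havcr1 and Hmox1 differed in LF. In LF, Havcr1 read 3.88 ± 0.056 at day 0, 6.84 ± 0.74 at day 7 and 8.40 ± 0.82 at day 10 (SD, n = 4 each). Its highest group was LF day 10 (up by 4.52 against day 0, limma adjusted p = 6.64e-07), where Hmox1 averaged 5.81, and the LF change between the treated days was 1.56 for Havcr1 (adjusted p = 0.135) and -3.13 for Hmox1. In L at day 7 both stayed near day 0, with a Havcr1 difference of 0.04 (adjusted p = 0.996).

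The AhR target Cyp1a1 had another order of strains. It read 5.35 ± 0.39 in L at day 7 against 3.95 ± 0.26 in L at day 0, a difference of 1.40 (limma adjusted p = 0.681), where no L array was high in Hmox1. In LF, whose day 7 group had the highest Hmox1 mean, Cyp1a1 read 5.31 ± 0.53 at day 7 against 4.79 ± 0.29 at day 0, a difference of 0.51 (adjusted p = 0.539). Cyp1a1 rose by 2.73 in F at day 7 (adjusted p = 0.000856), by 2.97 in F at day 10 (adjusted p = 0.000150) and by 2.02 in FL at day 10 (adjusted p = 0.0415), groups that also held high Hmox1 arrays.

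Array by array, Hmox1 followed these genes in some groups and not in others. In F at day 7, Hmox1 read 7.87, 5.75, 9.71 and 9.15 in replicates 1 to 4 and Cyp1a1 6.18, 5.62, 8.88 and 7.28, the same rank order. Havcr1 read 7.61, 6.60, 6.14 and 7.58 there, lowest on the array highest in Hmox1. In LF at day 7, Hmox1 read 10.19, 9.14, 10.57 and 5.87 and Cyp1a1 5.29, 5.99, 4.70 and 5.25. Havcr1 read 7.75, 7.10, 6.06 and 6.45, so the highest Hmox1 array of that group was the lowest in both other genes. In L at day 10, Hmox1 read 7.41, 8.64, 5.11 and 5.10 in replicates 1 to 4, where Havcr1 read 6.63, 4.56, 7.04 and 4.09. In FL at day 10, Hmox1 read 4.68, 5.89, 9.59 and 9.20, where Cyp1a1 read 6.83, 6.79, 6.66 and 5.70 and Havcr1 4.64, 5.43, 8.03 and 5.76, so Havcr1 kept the rank order of Hmox1 there and Cyp1a1 did not. In F at day 10 the single low Hmox1 array, replicate 4 at 5.74, had Cyp1a1 at 7.60 and Havcr1 at 7.00. A low Hmox1 reading thus also appeared on arrays where either or both of the other genes were high.

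Genes were then ranked by how closely they followed Hmox1 from array to array within groups, by Pearson correlation over 48 arrays after the 12 group means were subtracted. This is a description: arrays of 1 run share that run, and the correlation of Hmox1 with array spread was -0.09. Of 7602 other probe sets with a single symbol, 3 reached r above 0.5 and 9 lay under -0.5, and the median size of r was 0.108. The highest was Hcst (r = 0.55, Spearman rho = 0.33), a signalling adaptor of NK and T cells. Next came Prpmp5 (0.53), Rit2 (0.52), a small GTPase, and Rasd1 (0.49), a glucocorticoid-induced Ras protein. The olfactory receptors Or52b1 (0.49) and Or9s15 (0.48), Runx3 (0.48), Sstr4 (0.47), Angptl4 (0.46) and Pdk4 (0.46) followed. Mean signals were low for Hcst (2.61), Prpmp5 (2.38), Or52b1 (2.92), Rit2 (3.61) and Sstr4 (3.67), where array medians were at least 5.66. On day 0 arrays alone r was -0.46 for Hcst, -0.31 for Rit2 and -0.08 for Angptl4, and above 0 for the others. Whether r of this size exceeds what so many probe sets give by chance was not tested.

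The lowest were Pdgfa, a growth factor (r = -0.60, rho = -0.50), Nuak2, an AMPK-related kinase (-0.60), Ccnd1, cyclin D1 (-0.57), Thumpd2 (-0.52) and Snapc2 (-0.51). On day 0 arrays alone r was above 0 for Ccnd1 (0.48), Thumpd2 (0.25) and Snapc2 (0.05). It was -0.04 for Pdgfa and -0.19 for Nuak2 there. Hcst and Pdgfa spanned little, with SDs within groups of 0.204 and 0.145 against 1.28 for Hmox1. Without the pair of arrays farthest from their group means, LF day 7 replicate 4 and FL day 10 replicate 1, r was 0.43 for Hcst and -0.45 for Pdgfa, and 4 of the 10 highest and 1 of the 5 lowest genes stayed in place. With array medians subtracted 4 of the 10 stayed, and with run means subtracted 6 of the 10 (both chosen after seeing the data). Of the 5 lowest, 1 stayed with each of these subtractions.

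Among the heme breakdown genes and regulators, Por was closest (r = 0.45, rank 14, and 0.27 without that pair of arrays), followed by Atf3 (0.36). Havcr1 had r = 0.25, Nqo1 0.18 and Cyp1a1 0.12. Gclm (-0.01), Nfe2l2 (-0.01) and Hmox2 (-0.17) were near or below 0, and Adgre1, a macrophage marker, had -0.38. The median r was 0.04 over 22 Nrf2 targets, 0.12 over 19 injury markers and -0.06 over 11 macrophage markers. It lay farther below 0 over 8 loop and distal tubule (-0.23), 8 collecting duct (-0.27) and 2 endothelial markers (-0.27). Over 9 proximal tubule markers it was -0.02 and over 6 podocyte markers -0.10.

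**Figure D5:**
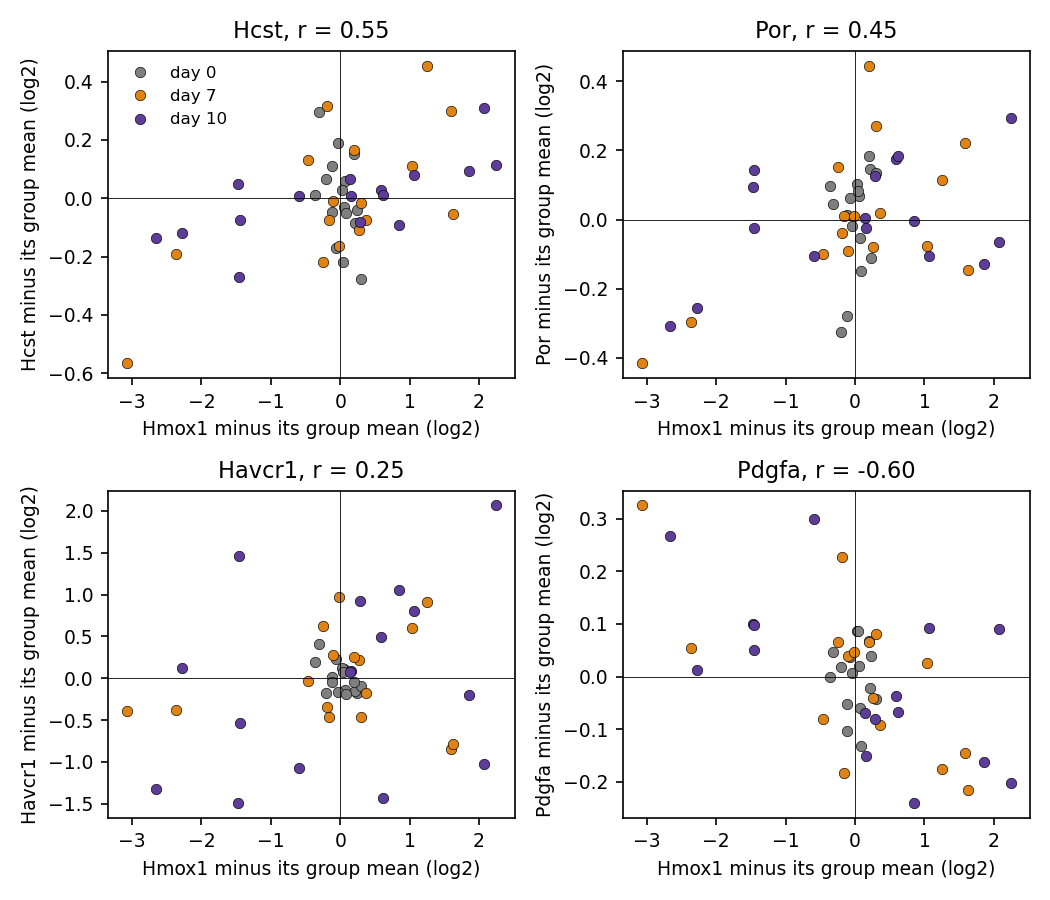
Deviation of Hcst, Por, Havcr1 and Pdgfa from their group means (log2, y axes) against that of Hmox1 (log2, x axis) on each of the 48 arrays, coloured by day. The far left points are LF day 7 replicate 4 and FL day 10 replicate 1, and the points of day 0 lie close to 0 on the Hmox1 axis.

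Over the 12 group means, which include the strain and day differences, the closest genes were Sema6b, a semaphorin (r = 0.88), Plin2, the lipid droplet coat protein (0.88), Fga, the fibrinogen alpha chain (0.87), Pdk4, a kinase that shuts off pyruvate oxidation (0.87), and Angptl4, an inhibitor of lipoprotein lipase (0.86). Pdk4 and Angptl4 were also among the 10 closest within groups. Pdk4 group means were 5.20 at day 0, 6.41 at day 7 and 5.89 at day 10 in LF, and 5.45, 5.49 and 6.41 in FL. Its highest day was thus day 7 in LF and day 10 in FL, like that of Hmox1. Sema6b, Plin2, Fga and Angptl4 had the same highest days. All were picked by likeness to these same means, so shared highest days are no separate evidence. Havcr1 and Cyp1a1 each had r = 0.73, Gclc -0.80 and Adgre1 -0.77. These are descriptions over 12 means that share 4 day 0 groups.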

How the data were processed

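The authors deposited 1 table of log2 signals for 48 arrays, with RMA and limma named in the submitters' processing notes without versions or roles; the genome build is not given in the sources used here. Probe sets were named from the platform annotation: 7603 had 1 symbol, 409 several and 785 none, and 7584 matched RefSeq by Entrez ID. The deposited log2 values were used unchanged.

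limma 3.58.1 in R 4.3.3 was fitted to all 8797 probe sets with 1 mean per group (36 residual degrees of freedom), with Benjamini-Hochberg adjustment over all probe sets and a threshold of 0.05. Exact permutation tests of Hmox1 were coded directly with numpy 2.4.6, and Spearman correlations used scipy 1.17.1. The fit was tested on simulated data that gave each probe set the same spread in every group. The Hmox1 spread differed between days, so that simulation does not cover the fit for this gene. Alternatives were the array run as a block, other scalings, array weights, a spread covariate, low signals left out, fewer arrays in the fit, and each array or run left out. Array names in the labels give 1 run code per replicate number, so runs pair the arrays. Deviations from group means correlated at 0.094 within runs and -0.031 between runs on average.

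The gene and the 18 gene lists (159 of 240 genes measured) were chosen with earlier results of these data known. A gene with several probe sets took the one with the highest mean. Genes were named if listed in advance, if among the 4 list members with the smallest p past the threshold at each day, or by rank of likeness.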

Additional observations from a re-analysis of the deposited data

Results flagged for a closer look

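In 2 of 12 groups the lowest Hmox1 array lay far from the other 3 by Dixon's test at 95%, which chance flags in about 1 of 20 groups. In F day 10, replicate 4 read 5.74, against 8.61 to 9.09 on the other arrays. In LF day 10, replicate 3 read 5.22, against 5.96 to 6.10. Both low arrays were still above the highest day 0 array of their own strain, and the F array was among the 5 with the lowest signal spread of the series.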

How the results depend on the processing

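Over the alternatives that did not leave out single arrays or runs, 378 of 396 values kept their direction and their side of the threshold, 8 passed it newly, 3 no longer passed, 3 changed sign and 4 counts or values moved. For LF at day 10 against day 7 the difference was -3.13 (adjusted p = 0.0308) with the replicate block, which changed no other call. It was -3.26 (adjusted p = 0.0479) with array medians subtracted, -3.24 (adjusted p = 0.0403) after a second quantile normalization and -3.13 (adjusted p = 0.0435) without the lowest 25% of probe sets by mean. With each of these last 3 settings, and with array spread as a covariate, 1 of 18 differences of change between strain pairs passed, FL minus LF between days 7 and 10. LF at day 7 against day 0 stayed at 4.07 with only the compared arrays, where fewer arrays estimate the spread (adjusted p = 0.0770). F at day 10 against day 7 was 0.55 with array weights and 0.66 without the 5 arrays of lowest spread, an alternative chosen after seeing the data, and the change between days 7 and 10 in FL minus that in L was then -0.34, where neither passed in any setting run. Without those 5 arrays the calls at day 7 of LF against L (3.54, adjusted p = 0.111) and FL against LF (-3.04, adjusted p = 0.214) were lost.

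Leaving out each array or run gave these ranges. Day 7 against day 0 lay between 1.45 and 1.98 in the mean of strains, 2.37 and 3.71 in F, -0.38 and -0.033 in L, -0.0067 and 0.21 in FL, and 3.53 and 5.09 in LF. Day 10 against day 0 lay between 1.70 and 2.10 in the mean, 2.44 and 3.57 in F, 0.82 and 2.00 in L, 1.53 and 3.18 in FL, and 0.80 and 1.15 in LF. Day 10 against day 7 lay between -0.16 and 0.38 in the mean, -1.25 and 1.00 in F, 0.97 and 2.27 in L, 1.35 and 3.04 in FL, and -4.20 and -2.39 in LF. At day 7, LF against F lay between -0.033 and 2.19. The change between days 7 and 10 in FL minus that in L lay between -0.92 and 1.79. The F value lay between 6.34 and 17.4 for the strains at day 7 and between 2.68 and 7.55 for the interaction. The count of strain pairs that passed lay between 0 and 4, and that of differing changes between 0 and 2. The cause of these shifts was not tested. The number of arrays, 4 a group, limits the precision.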

Other observations

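The array also carried a probe set named Hmox3, which RefSeq now lists as an Hmox2 pseudogene. It averaged 2.89 ± 0.16 at day 0, 2.83 ± 0.20 at day 7 and 2.89 ± 0.27 at day 10 (SD over 16 arrays each). Its correlation with Hmox1 within groups was -0.08. Prdx1, the gene with a wider spread within groups than Hmox1, was also wide in the carrier-fed rats. It ranged from 1.04 to 7.14 at day 0, from 1.45 to 5.94 at day 7 and from 1.96 to 6.20 at day 10. The reading of 1.04 was the lowest signal of the series, and whether this probe set lay above background was not measured.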
